A study of Homo sapiens with 6 samples.

Results

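MYEOV siRNA 1 and MYEOV siRNA 2 are different small interfering RNAs against the same messenger RNA, and what is described here is how A549 cells that received one differed from A549 cells that received the other. The comparison takes 4 of the 6 arrays of the study, 2 for each MYEOV siRNA, and 7442 of the 14884 genes with a named row, chosen because their mean over all 6 arrays was at least 5.45 on the log2 scale. The remaining 2 arrays are of cells given a control siRNA, labelled siNC, and take no part in the calls. A549 is a human lung cancer cell line. All cells were grown in DMEM with 10% FBS, transfected with Lipofectamine RNAiMAX and harvested 48 hours later, so the lipid reagent and the loading of a small RNA are common to all groups. Total RNA was hybridised to Affymetrix whole-transcript arrays. The labels do not say whether the arrays of a group come from separate transfections, so p-values here measure the spread between arrays, which may be technical.

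An siRNA is loaded into an Argonaute protein, which uses one strand as a guide to cut messenger RNAs that pair with it along its length. The same guide can also lower other messenger RNAs through short pairing of its 5′ seed, mostly in the 3′ untranslated region, as a microRNA does. Cells given different siRNAs to one gene share the loss of the target and may differ in other transcripts. No siRNA sequence is given in the sources used here, and whether transcripts that differed pair with either guide was not tested.

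MYEOV, the shared target, had a log2 signal of 5.34 and 5.19 with siRNA 1 and of 5.23 and 4.70 with siRNA 2. The ranges of the siRNA groups overlapped, and both lay below the control arrays, at 6.20 and 6.50. The difference, always given here as siRNA 1 minus siRNA 2, was 0.30 ± 0.17 (SE; limma, Benjamini-Hochberg adjusted p = 0.358). Without siRNA 2 replicate 1 it was 0.56 and without siRNA 2 replicate 2 it was 0.04, so its size depends on which siRNA 2 array is kept. Every MYEOV signal with siRNA 1 or siRNA 2 lay below the minimum mean level for testing, which the gene reached only through its control arrays. Differences of dim transcripts are compressed in these signals. The missing call therefore does not show that the siRNAs lowered MYEOV equally.

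Over all genes, the siRNAs gave different profiles. A gene is called where limma's moderated test, adjusted by Benjamini-Hochberg, gave a p under 0.05, and 618 of the 7442 genes tested were called, or 8.30%. Of these, 367 were higher with siRNA 1 (4.93%) and 251 were lower (3.37%). A difference of at least 2-fold was called for 30 genes in the higher direction and 21 in the lower, together 0.685% of genes. The median difference of all genes was 0.00, and both arrays of one siRNA lay beyond both arrays of the other for 4057 genes, or 54.5%. All 618 called genes were among these, so for a called gene such separation adds nothing to the call. At an unadjusted p under 0.05 there were 1813 genes, or 24.4%. Replicate arrays differed by at least 1 on the log2 scale in 0 genes for siRNA 1 and 1 gene for siRNA 2, against 53 to 63 genes for an array of each siRNA. Fewer genes were called with 1 array left out, at 216 without siRNA 1 replicate 1, 178 without siRNA 1 replicate 2, 150 without siRNA 2 replicate 1 and 171 without siRNA 2 replicate 2. In all 4 of these fits 123 of the 618 genes stayed called, 76 higher and 47 lower.

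**Figure D1:**
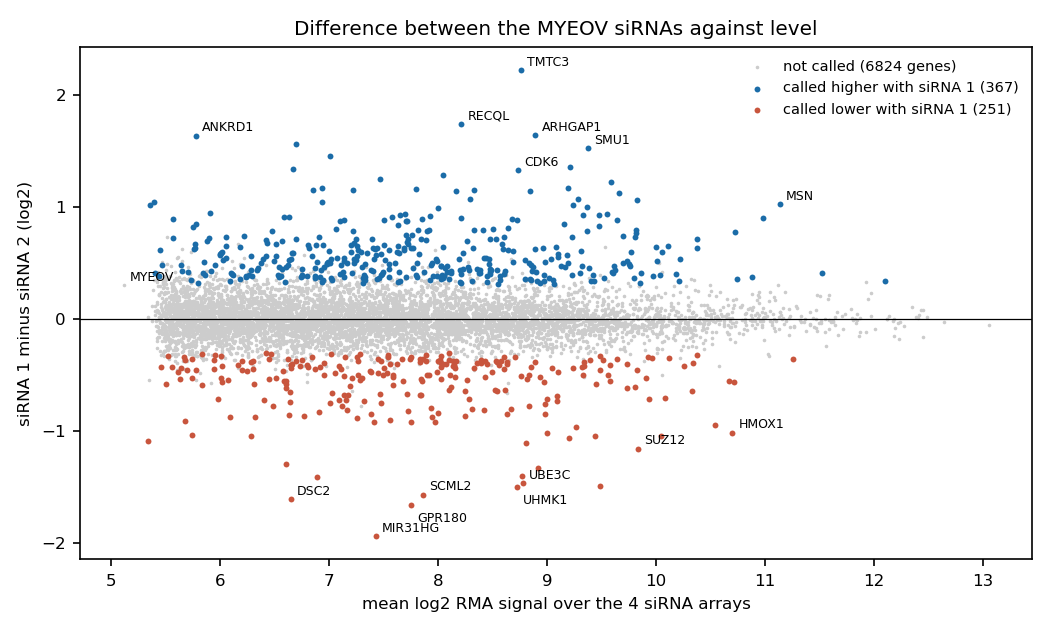
Difference between the siRNAs (siRNA 1 minus siRNA 2, log2) against the mean log2 signal over the 4 arrays, 1 point per gene, with called genes coloured by direction. Called genes lie at all levels, TMTC3 is the highest point at 2.22 and MIR31HG the lowest at -1.94.

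The genes that were most strongly higher with siRNA 1 encode enzymes and regulators of varied processes. TMTC3, an endoplasmic reticulum protein that adds mannose to cadherins, had log2 signals of 9.87 and 9.85 with siRNA 1 and 7.68 and 7.62 with siRNA 2, a difference of 2.22 ± 0.07 (SE; limma adjusted p = 0.000633). RECQL, a RecQ family DNA helicase, had 9.10 and 9.06 against 7.43 and 7.26, and ARHGAP1 had 9.66 and 9.75 against 8.06 and 8.08. For these genes the arrays of each siRNA lay close together and far from those of the other. The differences were 1.74 ± 0.08 for RECQL and 1.64 ± 0.07 for ARHGAP1 (SE; limma adjusted p = 0.000977 for both). ANKRD1, an ankyrin repeat protein induced by the coactivators YAP and TAZ, had 6.63 and 6.56 against 4.84 and 5.09, a difference of 1.63 ± 0.10. Both ANKRD1 signals with siRNA 2 lay below the minimum mean level for testing, which the gene reached only through its other arrays. PRUNE1, an exopolyphosphatase, differed by 1.56, the splicing factor SMU1 by 1.52 and ALYREF, which couples splicing to messenger RNA export, by 1.45.

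Another 5 of the 12 protein-coding genes with the largest positive differences act in membranes, the cell cycle and mitochondria. TMEM30A, a subunit of phospholipid flippases, had log2 signals of 9.88 and 9.90 with siRNA 1 and 8.43 and 8.63 with siRNA 2. ATG14, which directs a lipid kinase complex to forming autophagosomes, had 7.37 and 7.29 against 5.94 and 6.05. CDK6, a kinase that partners D-type cyclins to start the cell cycle, had 9.42 and 9.37 against 8.04 and 8.10. Their differences were 1.36, 1.33 and 1.32. ISOC1 followed at 1.29 and APOO, a component of the inner mitochondrial membrane's MICOS complex, at 1.24. Each of these 12 genes stayed called with any 1 array left out, with limma adjusted p at or below 0.0218.

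Among genes that were lower with siRNA 1, membrane, adhesion and chromatin proteins led. GPR180, a membrane protein, had log2 signals of 6.88 and 6.95 with siRNA 1 and 8.49 and 8.67 with siRNA 2, a difference of -1.66 ± 0.09 (SE; limma adjusted p = 0.00104). DSC2, the desmosomal cadherin desmocollin 2, had 5.94 and 5.74 against 7.53 and 7.38, a difference of -1.61 ± 0.10. The Polycomb family protein SCML2 had 7.29 and 6.86 against 8.61 and 8.69, a difference of -1.57 ± 0.14. Of these, SCML2 had the widest gap between its siRNA 1 arrays, which still lay well below both siRNA 2 arrays. UHMK1, a kinase that phosphorylates a splicing factor, had 8.03 and 7.91 against 9.43 and 9.51. GALNT1, which starts mucin-type O-glycosylation, had 8.60 and 8.88 against 10.15 and 10.31. UBE3C, a ubiquitin ligase that acts with the proteasome, had 8.03 and 8.06 against 9.50 and 9.51. The differences of these 3 genes were -1.50, -1.49 and -1.46. SKAP2, an adaptor of Src family kinases, differed by -1.41, C5orf15 by -1.40 and LIN7C, a scaffold of cell polarity, by -1.33. SCML1, SUZ12 and the ubiquitin ligase TRIM37 completed the 12 at -1.29, -1.16 and -1.10. All 12 stayed called with any 1 array left out.

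**Figure D2:**
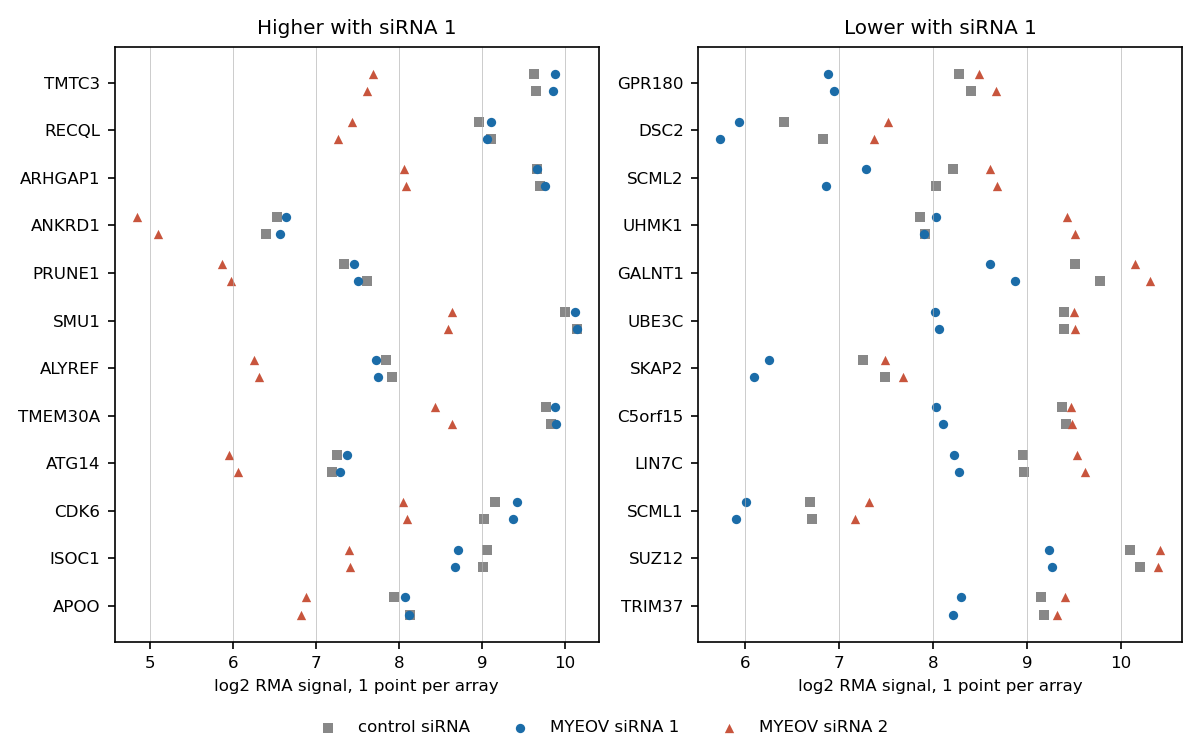
Log2 RMA signal of the 12 protein-coding genes with the largest difference in each direction, 1 point per array (squares, control siRNA; circles, MYEOV siRNA 1; triangles, MYEOV siRNA 2). In the left panel the control arrays of TMTC3, RECQL and ARHGAP1 sit beside those of siRNA 1, and in the right panel those of GPR180 and UBE3C sit beside siRNA 2 while those of UHMK1 sit beside siRNA 1.

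The control arrays show on which side of each difference the cells without either MYEOV siRNA lay. This is a description with no test. The control mean was placed on the gap from the siRNA 2 mean (0) to the siRNA 1 mean (1), and called near siRNA 2 below 0.25, near siRNA 1 above 0.75 and in the middle between these. All 30 genes called at least 2-fold higher with siRNA 1 had a control mean near siRNA 1 or beyond it, so for these genes the siRNA 2 mean was the lowest of the 3 group means. TMTC3 had control signals of 9.62 and 9.64 and RECQL of 8.96 and 9.11, both next to their siRNA 1 values. Of the 21 genes at least 2-fold lower with siRNA 1, the control mean was near or beyond siRNA 2 for 12, in the middle for 7 and beyond siRNA 1 for 2. The 2 were UHMK1, with control signals of 7.86 and 7.92, and CCNE2, cyclin E2, with 5.62 and 5.84 in the control, 5.84 and 5.69 with siRNA 1 and 6.78 and 6.84 with siRNA 2. DSC2, SCML2, GALNT1, LIN7C, SCML1, HMOX1 and STK39 had the control in the middle, so the siRNA 1 mean was below it and the siRNA 2 mean above it.

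Over all called genes the control mean lay near or beyond siRNA 1 for 217 of the 367 higher genes, in the middle for 108 and near or beyond siRNA 2 for 42. For the 251 lower genes it lay near or beyond siRNA 2 for 124, in the middle for 83 and near or beyond siRNA 1 for 44. In 12 of the 618 genes the control mean was above both siRNA means by more than 0.3 on the log2 scale, and in 9 it was below both by that much. APAF1, the core of the apoptosome, had 7.92 and 7.96 in the control, 7.52 and 7.39 with siRNA 1 and 6.43 and 6.40 with siRNA 2. LINC00294, a long non-coding RNA, had 7.33 and 7.60 in the control against 8.62 and 8.65 with siRNA 1 and 7.94 and 8.06 with siRNA 2. These genes moved away from the control with both siRNAs, by unequal amounts. The nucleolar protein MAK16, the DNA glycosylase TDG and TTPAL also had the control above both siRNAs, and the kinesin subunit KIF3A, the kinetochore protein CENPK and the centrosomal protein CEP19 had it below. Of these 8 genes APAF1 alone stayed called with any array left out, and 6, 7, 7 and 6 lost the call without siRNA 1 replicate 1, siRNA 1 replicate 2, siRNA 2 replicate 1 and siRNA 2 replicate 2 (limma adjusted p from 0.0516 to 0.175).

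**Figure D3:**
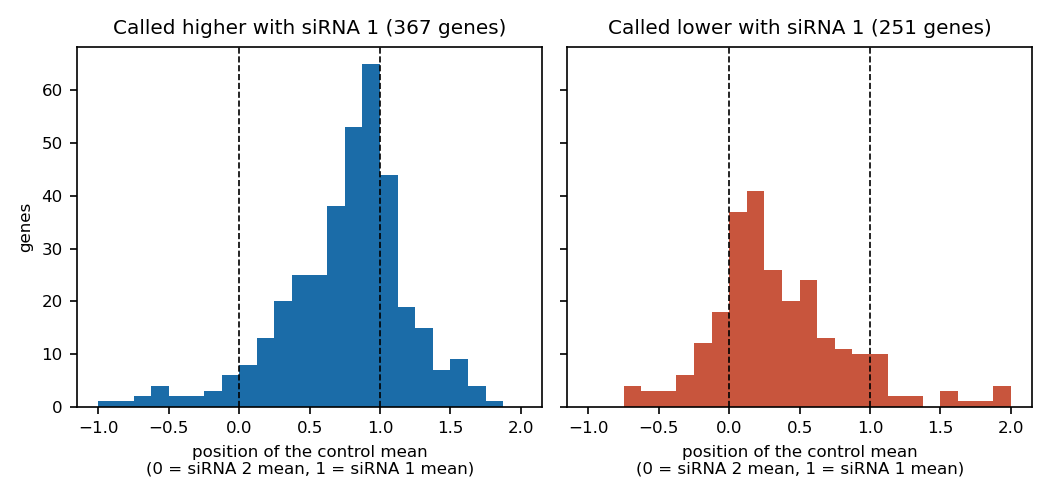
Position of the control mean for each called gene, where 0 is the siRNA 2 mean and 1 the siRNA 1 mean, as a count of genes, with 5 genes outside the plotted range drawn at its edges. Genes higher with siRNA 1 (left, 367 genes) gather near 1, with a median of 0.85, and genes lower with siRNA 1 (right, 251 genes) gather near 0, with a median of 0.26.

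Genes were then grouped by function, in lists described by their counts and their median beside the 8.30% of genes called and the median difference of 0.00 over all genes. Polycomb and chromatin regulators leaned to lower calls with siRNA 1. Polycomb proteins form complexes that compact chromatin or mark histones to keep genes silent. Of 64 members tested, 8 were called lower and 2 higher (15.6%), and the median difference was -0.01. SUZ12, a core subunit of Polycomb repressive complex 2, had log2 signals of 9.24 and 9.26 with siRNA 1 and 10.42 and 10.40 with siRNA 2, a difference of -1.16 ± 0.06 (SE). SCML1, a relative of SCML2, had 6.01 and 5.91 against 7.33 and 7.17. The acetyltransferase KAT2B had 7.56 and 7.45 against 8.49 and 8.38, a difference of -0.92. In these genes, as in SCML2, the groups lay far apart. Named after their values were seen, as all the called lower members beyond the first 4, were the histone methyltransferase NSD2 at -0.89, PCGF5 and PCGF3, subunits of Polycomb repressive complex 1, at -0.82 and -0.50, and EZH2, the catalytic partner of SUZ12, at -0.37. The members called higher were CHD9, a chromatin remodeller, at 0.58 and KMT2C, a histone methyltransferase, at 0.37. SCML2, SCML1, SUZ12, KAT2B and NSD2 stayed called with any array left out. The other 5 lost the call in at least 1 such fit (4, 3, 5 and 5 genes without siRNA 1 replicate 1, siRNA 1 replicate 2, siRNA 2 replicate 1 and siRNA 2 replicate 2), with limma adjusted p from 0.0547 to 0.163.

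Moesin and the kinase SLK were among the 51 genes called with a difference of at least 2-fold, and are described here as single genes. MSN, moesin, which ties actin to the plasma membrane, had log2 signals of 11.64 and 11.65 with siRNA 1 and 10.61 and 10.63 with siRNA 2. SLK, a kinase that phosphorylates moesin and its relatives, had 9.63 and 9.41 against 10.63 and 10.49. The differences were 1.03 ± 0.06 for MSN and -1.04 ± 0.10 for SLK (SE; limma adjusted p = 0.00156 and 0.00463). Both stayed called with any array left out.

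In the Hippo pathway, a kinase cascade holds the coactivators YAP and TAZ out of the nucleus. Of 25 pathway members and YAP and TAZ targets tested, 7 were called higher with siRNA 1 and 1 lower (32.0%), and the median difference was 0.09. The target ANKRD1 led. Among the members that restrain YAP and TAZ, the kinase STK4 had log2 signals of 8.36 and 8.38 with siRNA 1 and 7.77 and 7.68 with siRNA 2, and NF2, merlin, had 9.00 and 8.98 against 8.32 and 8.44. AJUBA, a LIM protein that inhibits the pathway's kinases, had 7.71 and 7.84 against 7.23 and 7.28. Pathway members with opposite roles thus differed in the same direction, by 0.64, 0.60 and 0.52. MOB1B, an activator of the pathway's kinases, was the member called lower, at -0.36. Under most alternatives the list had 0 lower calls, among them all 6 arrays, no filter, the filter at the 75th percentile, the trend and robust prior and array weights. MOB1B lost its call with any array left out. With an array left out the list had 2 to 4 calls. ANKRD1 stayed called in all 4 fits, and of STK4, NF2, AJUBA and MOB1B 2 lost the call without siRNA 1 replicate 1 and 3 without siRNA 1 replicate 2, siRNA 2 replicate 1 or siRNA 2 replicate 2 (limma adjusted p from 0.0523 to 0.178).

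Adhesion and matrix genes gave calls in both directions. Among 24 genes of epithelial junctions and keratins, 2 were called higher with siRNA 1 and 1 lower (12.5%, against 8.30% over all genes), with a median of 0.07. The keratin KRT80 was higher at 0.55 and the polarity protein PARD3 at 0.44, and DSC2 was lower. Mesenchymal and matrix genes had 2 of 12 called higher and none lower (16.7%), with a median of 0.15. These were the matricellular protein THBS1 at 0.57 and the tropomyosin TPM1 at 0.54. Of 11 integrins and metalloproteases 1 was called (9.09%), the sheddase ADAM9, and the list's median was 0.04. ADAM9 was lower, with log2 signals of 10.11 and 10.02 with siRNA 1 and 11.03 and 10.99 with siRNA 2. DSC2 and ADAM9 stayed called with any array left out. Of KRT80, PARD3, THBS1 and TPM1, 4, 4, 2 and 4 lost the call without siRNA 1 replicate 1, siRNA 1 replicate 2, siRNA 2 replicate 1 and siRNA 2 replicate 2 (limma adjusted p from 0.0523 to 0.149).

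Cell cycle genes were called in both directions. Cyclin D with CDK4 or CDK6 and then cyclin E carry a cell into DNA replication. Of 38 genes of the G1/S transition and replication, 4 were called higher with siRNA 1 and 3 lower (18.4%), with a median of -0.05. CCND1, cyclin D1, had log2 signals of 9.38 and 9.41 with siRNA 1 and 8.80 and 8.73 with siRNA 2, and was thus higher, as was its partner CDK6. RBL1, a pocket protein related to the retinoblastoma protein, differed by 0.55 and GINS1, a subunit of the replicative helicase, by 0.46. CCNE2 was lower with siRNA 1, by -1.04 ± 0.08 (SE), as were the phosphatase CDC25A at -0.40 and RRM2, a ribonucleotide reductase subunit, at -0.36. So CCND1 and CCNE2 were called in opposite directions. Of 41 genes of G2/M and mitosis 2 were called (4.88%), both higher, and the median was -0.07. They were the spindle checkpoint protein MAD2L1 at 0.71 and CDCA8, a chromosomal passenger protein, at 0.63. Under the trend and robust prior 1 member of this list was called lower. CDK6, CCNE2 and MAD2L1 stayed called with any array left out. Of the other 6, 4, 5, 5 and 6 lost the call without siRNA 1 replicate 1, siRNA 1 replicate 2, siRNA 2 replicate 1 and siRNA 2 replicate 2 (limma adjusted p from 0.0524 to 0.161).

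Centromere and kinetochore genes had 2 of 26 called higher and 3 lower with siRNA 1 (19.2%, against 8.30% over all genes), and a median of -0.07. CENPA, the histone variant that marks centromeres, had log2 signals of 8.13 and 8.34 with siRNA 1 and 7.46 and 7.62 with siRNA 2. HJURP, the chaperone that deposits CENPA, had 9.42 and 9.51 against 9.82 and 9.83. The histone and its chaperone thus differed in opposite directions, by 0.70 and -0.36. Subunits of the SKA complex, which holds kinetochores on microtubules, were also split, with SKA1 at 0.42 and SKA2 at -0.50. CENPK differed by -0.37. None of these 5 calls held with every array left out, and 4, 5, 5 and 5 were lost without siRNA 1 replicate 1, siRNA 1 replicate 2, siRNA 2 replicate 1 and siRNA 2 replicate 2 (limma adjusted p from 0.0545 to 0.153).

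Of 93 genes of splicing and messenger RNA export, 5 were called higher with siRNA 1 and 3 lower (8.60%), with a median of -0.05. That share was close to the 8.30% over all genes. The lower calls outnumbered the higher with the filter at the 75th percentile, 7 to 3, and with the trend and robust prior, 7 to 6. SMU1 had log2 signals of 10.12 and 10.14 with siRNA 1 and 8.63 and 8.59 with siRNA 2, and ALYREF had 7.72 and 7.74 against 6.25 and 6.31. The RNA-binding protein HNRNPF differed by 0.54 and SRPK2, a kinase of splicing factors, by 0.37. UHMK1 was lower, as were the helicase DDX17 at -0.33 and SNRPB2, a protein of the U2 particle, at -0.32. SMU1, ALYREF and UHMK1 stayed called with any array left out, and HNRNPF, SRPK2, DDX17 and SNRPB2 lost the call with each of the 4 left out (limma adjusted p from 0.0529 to 0.162).

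Translation and ribosome assembly genes were called in both directions, as genes were over all. The shares called were close to or below the 8.30% over all genes, so the counts do not set these genes apart. Of 40 translation factors and tRNA synthetases 2 were called higher and 2 lower with siRNA 1 (10.0%), with a median of 0.04. The related initiation regulators BZW2 and BZW1 were both higher, BZW2 with log2 signals of 7.77 and 7.81 with siRNA 1 and 6.58 and 6.71 with siRNA 2, and BZW1 with 9.93 and 9.93 against 9.02 and 9.00. EIF4EBP2, an inhibitor of cap-dependent initiation, was lower at -0.71 and DENR, which helps re-initiation, at -0.52. Ribosome biogenesis genes had 3 of 47 called higher and 1 lower (8.51%), with a median of -0.04: NIP7 at 1.00, WDR36 at 0.74, RRP15 at 0.43 and WDR12 at -0.67. Mitochondrial ribosomal proteins had 3 of 72 called (4.17%), all higher, MRPL58 at 1.17, MRPS10 at 0.47 and MRPL18 at 0.41, while the family's median was -0.05 and 1 member was called lower with the trend and robust prior. The 52 genes grouped by symbol as cytosolic ribosomal proteins had 0 calls and 1 gene at an unadjusted p under 0.05, RPL7L1 at -0.29. Its symbol alone places RPL7L1 in this group. RPL7L1 was called lower under 3 of the other settings (the filter at the 75th percentile, the trend and robust prior, and array weights). The median absolute difference of the 52 genes was 0.03, against 0.11 over all genes. BZW2, BZW1, EIF4EBP2, NIP7, WDR36 and MRPL58 stayed called with any array left out. Of DENR, RRP15, WDR12, MRPS10 and MRPL18, 4, 5, 4 and 5 lost the call without siRNA 1 replicate 1, siRNA 1 replicate 2, siRNA 2 replicate 1 and siRNA 2 replicate 2 (limma adjusted p from 0.0561 to 0.114).

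Endosomal trafficking genes held 6 calls, all lower with siRNA 1 in the reported fit. ESCRT complexes bud and cut membranes at endosomes, and RAB proteins steer vesicles. The 6 were of 48 genes tested (12.5%), with a median of 0.00 and 24 of the 48 differences above 0. Higher calls appeared in 4 alternatives: 1 beside 6 lower with all 6 arrays, 3 beside 6 with the filter at the 75th percentile, 2 beside 7 with the trend and robust prior and 1 beside 7 with array weights. STAMBP, a deubiquitinase that works with ESCRT, had log2 signals of 5.13 and 5.31 with siRNA 1 and 6.21 and 6.31 with siRNA 2, a difference of -1.04 ± 0.09 (SE). Both STAMBP signals with siRNA 1 lay below the minimum mean level for testing, which the gene reached only through its other arrays. CHMP1B, an ESCRT-III subunit, had 8.56 and 8.33 against 9.22 and 9.24. VPS4B, the ATPase that takes ESCRT-III apart, had 8.30 and 8.13 against 8.87 and 8.85. These 3 proteins all act with ESCRT complexes, and their genes differed by -1.04, -0.78 and -0.65. SNX13, a sorting nexin, differed by -0.59. STAMBP stayed called with any array left out, and of CHMP1B, VPS4B and SNX13 1, 2, 3 and 2 lost the call without siRNA 1 replicate 1, siRNA 1 replicate 2, siRNA 2 replicate 1 and siRNA 2 replicate 2 (limma adjusted p from 0.0542 to 0.0850). The list had 1 to 3 calls in those fits.

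Ubiquitin conjugation and deubiquitination genes had 5 of 78 called higher with siRNA 1 and 3 lower (10.3%), with a median of -0.04. The deubiquitinases were split, with USP47 at 0.88, USP53 at 0.71 and USP37 at 0.53 in one direction and USP12 at -0.68 and USP1 at -0.38 in the other. CUL5, a cullin scaffold, differed by 0.53. In lysosomes and autophagy 2 of 36 were called higher and 1 lower (8.33%), with a median of 0.02. ATG14 and the autophagy receptor OPTN, at 0.40, were higher, and the protease CTSL was lower at -0.51. Nuclear envelope and transport genes had 3 of 52 called higher and 2 lower (9.62%), with a median of -0.04. The shares of the lists in this paragraph were close to the 8.30% over all genes, where calls also went in both directions. The importins KPNA6 and IPO8 were higher at 0.80 and 0.47, and IPO11 was lower at -0.38. Among nuclear pore subunits SEH1L was higher at 0.40 and NUP58 lower at -0.40. UBE3C, USP47, ATG14 and KPNA6 stayed called with any array left out. All of the other 11 named here lost the call with each of the 4 arrays left out (limma adjusted p from 0.0504 to 0.173).

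Glycosylation and lipid enzymes were called in both directions, family members included. Of 31 glycosylation enzymes 2 were called higher with siRNA 1 and 2 lower (12.9%, against 8.30% over all genes), with a median of 0.03. TMTC3 was higher, and its relative TMTC2 was lower at -0.53, with log2 signals of 5.49 and 5.46 with siRNA 1 and 5.91 and 6.09 with siRNA 2. GALNT1 was lower, and GALNT10, of the same enzyme family, was higher at 0.40. Thus in both families 1 member was called in each direction. Sphingolipid enzymes had 3 of 19 called higher and 1 lower (21.1%), with a median of -0.03. SGPP1 and SGPL1, which dephosphorylate and cleave sphingosine 1-phosphate, differed in opposite directions, at -0.87 and 0.50, while UGCG, which makes glucosylceramide, and the ceramidase ACER3 were higher at 0.51 and 0.42. Of 39 genes of fatty acid and sterol synthesis 3 were called higher and 2 lower (12.8%), with a median of -0.02. The acyl-CoA synthetases ACSL1 and ACSL4 and the elongase ELOVL7 were higher at 0.58, 0.50 and 0.53, and the sterol genes IDI1, an isoprenoid isomerase, and STARD4, a cholesterol carrier, were lower at -0.74 and -0.47. TMTC3, GALNT1, SGPP1 and IDI1 stayed called with any array left out. Of the other 9, 9, 8, 9 and 9 lost the call without siRNA 1 replicate 1, siRNA 1 replicate 2, siRNA 2 replicate 1 and siRNA 2 replicate 2 (limma adjusted p from 0.0529 to 0.182).

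Stress and signalling lists held 1 to 3 calls each. HMOX1, heme oxygenase, a target of the antioxidant factor NRF2, had log2 signals of 10.26 and 10.13 with siRNA 1 and 11.29 and 11.13 with siRNA 2, and glutathione reductase, GSR, differed by -0.36. These were the 2 calls among 33 NRF2 and thiol genes (6.06%), both lower, with a median of -0.08. In this list 1 or 2 members were called higher with all 6 arrays, the filter at the 75th percentile, the trend and robust prior or array weights. Heat shock proteins and chaperonins had 3 of 24 called (12.5%), all lower, the prefoldin subunit VBP1 at -0.53, HSPA14 at -0.39 and the co-chaperone BAG3 at -0.38, with a median of -0.07. NF-kB genes, cytokines and chemokines had 2 of 18 called (11.1%), both higher, and 17 of the 18 differences were above 0, with a median of 0.23. Over all genes 49.9% of differences were above 0. This list, like the others, was chosen with earlier results of these data known. CXCL8, interleukin 8, had 6.23 and 5.60 against 5.03 and 4.71, with a wide gap between replicates. Both CXCL8 signals with siRNA 2 lay below the minimum mean level for testing, which the gene reached only through its other arrays. The NF-kB subunit REL had 8.53 and 8.38 against 8.02 and 7.82. Hypoxia genes had EGLN1, the oxygen-sensing hydroxylase, higher at 0.61 and VEGFA lower at -0.37 among 18 (11.1%), with a median of 0.00. One gene each was called among 32 p53 and apoptosis genes (APAF1 at 1.04; median -0.03), 28 DNA repair genes and helicases (RECQL; median 0.03), 28 genes of ERK output and the EGFR family (MAP2K1 at 0.39; median -0.06) and 18 interferon and nucleic acid sensing genes (IRF9 at -0.38; median -0.03). The shares called in these last lists were 3.12%, 3.57%, 3.57% and 5.56%, below the 8.30% over all genes. HMOX1, APAF1 and RECQL stayed called with any array left out. Of the other 10, 10, 9, 10 and 9 lost the call without siRNA 1 replicate 1, siRNA 1 replicate 2, siRNA 2 replicate 1 and siRNA 2 replicate 2 (limma adjusted p from 0.0557 to 0.183).

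**Figure D4:**
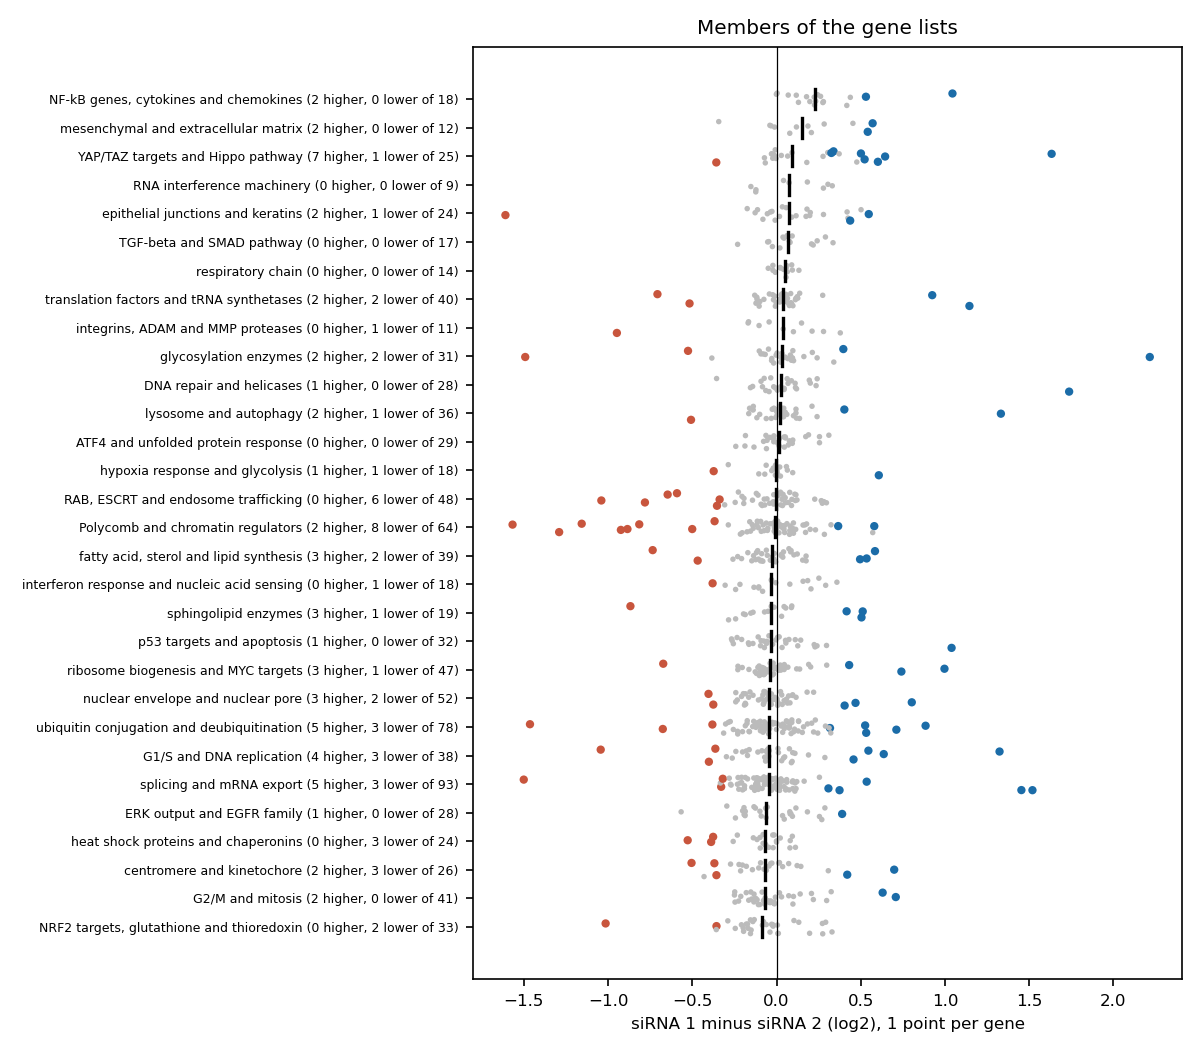
Difference between the siRNAs (siRNA 1 minus siRNA 2, log2) for each tested member of the described gene lists with at least 9 tested members, marker lists left out, 1 point per gene, with called genes coloured by direction and a vertical bar at the list's median, lists in order of median. Medians lie between -0.08 and 0.23, while called members reach 2.22 and -1.61, and endosomal trafficking has 6 calls on the lower side and 0 on the higher, where 4 other settings give 1 to 3.

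Several lists had 0 calls in limma. Few genes were tested in each, so 0 calls says little beside the 8.30% called over all genes. At an unadjusted p under 0.05 (limma) the share over all genes was 24.4%. RNA interference genes, which both siRNAs depend on, had 0 of 9 called and 3 at an unadjusted p under 0.05, with TNRC6B, an Argonaute partner, nearest at 0.31 ± 0.07 (SE; adjusted p = 0.0554) and called under the trend and robust prior and with array weights. TGF-beta and SMAD genes had 0 of 17 called and 4 at an unadjusted p under 0.05, with SKI, a SMAD repressor, at 0.34, and 2 members were called with the filter at the 75th percentile and 1 with array weights. Genes of ATF4 and the unfolded protein response had 0 of 29 called and 1 at an unadjusted p under 0.05, XBP1 at 0.25, which was called with the 75th percentile filter. Respiratory chain genes had 0 of 14 called and 0 at an unadjusted p under 0.05, and so did both proteasome genes tested. The median differences were 0.07 for RNA interference and for TGF-beta genes, 0.02 for unfolded protein response genes and 0.05 for respiratory chain genes. Many listed genes were not tested. Those tested were 9 of 18 for RNA interference, 17 of 41 for TGF-beta and 29 of 54 for the unfolded protein response. For the respiratory chain they were 14 of 91, and for the proteasome 2 of 44. The counts do not cover the untested members.

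The labelled cell type was checked against marker genes. Of 12 lung and A549 epithelial markers with a row, EPCAM, FOXA1, FOXA2, KRT7, KRT8, KRT18 and KRT19 were at or above the minimum level, and the lung markers NKX2-1, NAPSA, SFTPA1, SFTPB and SFTPC were below it. The median log2 level of the 12 was 5.72 and 5.82 with siRNA 1 and 5.49 and 5.51 with siRNA 2, against 5.70 and 5.79 in the control. Of the 7 tested differences 6 were above 0, against 49.9% over all genes. None of the 7 was called, and 3 had an unadjusted p under 0.05 (limma). The part of this shift in the other results was not tested. None of 3 fibroblast markers, 1 of 7 endothelial markers (ESAM) and 1 of 4 leukocyte markers (CD68, which many cell types hold in lysosomes) reached the minimum, and none was called.

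By transcript class, protein-coding genes made up 6959 of the genes tested, with 345 called higher and 241 lower (8.42%). Long non-coding RNAs had 14 of 191 called higher with siRNA 1 and 5 lower (9.95%), with a median of 0.03, and 2 to 6 calls with an array left out. MIR31HG, the host transcript of the microRNA miR-31, had log2 signals of 6.56 and 6.36 with siRNA 1, 8.44 and 8.35 with siRNA 2 and 8.51 and 8.36 in the control, so the siRNA 1 arrays alone were low. Its difference of -1.94 ± 0.09 (SE; limma adjusted p = 0.000977) was larger than that of any protein-coding gene in the same direction. WAC-AS1, an antisense transcript, was lower at -0.65. LINC00472 was higher, with 6.18 and 6.15 against 5.43 and 5.26, the siRNA 2 signals being below the minimum mean level for testing. PRKG1-AS1 and LINC01963 were higher at 0.69 and 0.67. Transcripts with a LINC symbol had 8 of 44 called higher and 1 lower (20.5%), with a median of 0.04. Among those called, LINC00265, LINC00999, LINC01000, LINC01061 and LINC01347 had further rows. Whether their probes also bind other transcripts was not tested, so these calls may not be independent. Transcribed pseudogenes had 5 of 121 called higher and 3 lower (6.61%). HNRNPA1P33 led the higher at 0.71, and GCSHP3 at -0.91 and TPTEP2 at -0.48 led the lower. Both GCSHP3 signals with siRNA 1 lay below the minimum mean level for testing. Probes for pseudogenes can also bind their parent genes, so these values are uncertain. The last class, labelled other small or structured RNA, held the 28 genes of all remaining RefSeq types. Its 1 call (3.57%) was the antisense transcript BACE1-AS, at 0.66, so the label does not describe every member. MIR31HG and LINC00472 stayed called with any array left out. Of the other 8 non-coding transcripts with the largest differences, MIR2909 among them, 4, 8, 8 and 5 lost the call without siRNA 1 replicate 1, siRNA 1 replicate 2, siRNA 2 replicate 1 and siRNA 2 replicate 2 (limma adjusted p from 0.0510 to 0.130).

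**Figure D5:**
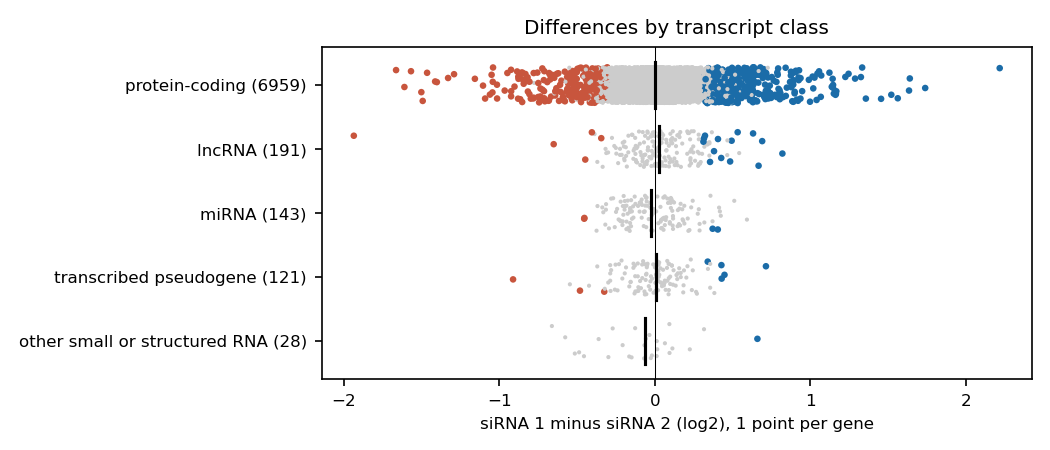
Difference between the siRNAs (siRNA 1 minus siRNA 2, log2) by transcript class, 1 point per gene, with called genes coloured by direction and a vertical bar at the class median. The long non-coding RNA MIR31HG stands alone at -1.94. Called long non-coding RNAs are mostly on the higher side in the reported fit, 14 against 5, with far fewer calls when an array is left out.

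MicroRNA genes had 2 of 143 called higher and 2 lower (2.80%), with a median of -0.03. Rows for microRNA genes measure RNA from the hairpin region, not the mature microRNA. MIR2909 had log2 signals of 9.59 and 9.61 with siRNA 1 and 10.04 and 10.06 with siRNA 2, a difference of -0.45 ± 0.06 (SE). MIR4737 had 11.73 and 11.72 against 11.38 and 11.27, and MIR346 had 6.93 and 6.93 against 6.63 and 6.49, differences of 0.40 and 0.37. MIR612 differed by -0.45. Of the tested microRNA genes 132 were found in the RefSeq microRNA table (build GRCh38.p14), and the mature products of 3 of the called genes are shown 5′ to 3′ to show that they share no seed, bases 2 to 8, set in capitals.
miR-2909, chr17:37033748-37033768, plus strand: gUUAGGGCcaacaucucuugg
miR-346, chr10:86264747-86264769, minus strand: uGUCUGCCcgcaugccugccucu
miR-4737, chr17:60043077-60043096, minus strand: aUGCGAGGaugcugacagug
The hairpins of MIR2909, MIR346 and MIR4737 lie inside the protein-coding genes AATF, GRID1 and HEATR6. AATF differed by -0.20 and HEATR6 by 0.20, with the sign of the microRNA row but not called (limma adjusted p = 0.156 and 0.124), and GRID1 was not among the genes tested. None of the 4 microRNA calls held with any array left out (limma adjusted p from 0.0542 to 0.187).

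Gene families named by symbol also gave calls in both directions. Zinc finger genes with a ZNF symbol had 5 of 235 called higher and 4 lower (3.83%), with a median difference of -0.01 and a median level of 6.54, against 7.36 over all genes. With the filter at the 75th percentile 7 of 58 were called higher and 7 lower, so the share called depends on the filter. With an array left out 2 to 3 were called. ZNF367 was lower, with log2 signals of 6.86 and 7.03 with siRNA 1 and 7.87 and 7.87 with siRNA 2, and ZNF138 was lower at -0.75, while ZNF12 and ZNF792 were higher at 0.58 and 0.57. Genes with a TMEM symbol, membrane proteins of varied function, had 11 of 133 called higher and 4 lower (11.3%), with a median of 0.03, and 2 to 5 calls with an array left out. TMEM181 differed by 0.92, TMEM267 by -0.78 and TMEM170A by -0.64. ZNF367, TMEM30A and TMEM181 stayed called with any array left out. Of the other 5, 1, 3, 5 and 4 lost the call without siRNA 1 replicate 1, siRNA 1 replicate 2, siRNA 2 replicate 1 and siRNA 2 replicate 2 (limma adjusted p from 0.0561 to 0.153). Small nucleolar and Cajal body RNA genes had 0 of 15 called and 5 at an unadjusted p under 0.05 (limma), against 24.4% over all genes. With the filter at the 75th percentile or the trend and robust prior 1 was called lower.

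Called genes were also described by length, promoter and level, with no test. The median length of the gene on GRCh38.p14 was 47.9 kb for genes higher with siRNA 1 and 48.2 kb for genes lower, against 28.3 kb over all genes tested, and so was longer in both directions. Promoter GC content was computed for the 6021 tested genes with a RefSeq promoter sequence, which runs from 250 bases before to 50 bases after the start, and had a median of 65.7% for higher genes and 67.0% for lower genes against 65.7% over all genes. The share called was larger at higher levels, going from 4.78% in the lowest quartile of mean log2 signal to 7.90%, 10.2% and 10.3% in the next quartiles, and the median standard error fell from 0.09 to 0.07. Of the called genes 31 had a further row, and 42 of these 51 rows differed in the same direction, among them all 23 at or above the minimum level. These rows are not independent. Several belong to the same gene, as for LINC01061 and LINC01347. A shared direction did not always mean a similar size. LPAR1 differed by 0.93 in the row used and 0.06 in its further row, and LINC00265 by 0.49 and, in one further row, 0.11. A further row of DDR1 and the further row of LOC100294145 had the same difference as the row used, 0.62 and 0.53.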

How the data were processed

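The values deposited by the authors are log2 signals. The submitters' processing notes name RMA, without a version. RMA corrects background, equalises the arrays' distributions and summarises probes, and it compresses differences of dim transcripts. Array medians lay between 4.08 and 4.10, and nothing was normalized further. Scanner files were not used here.

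Of 53617 rows, 16098 had 1 gene symbol in the platform annotation, and all matched the RefSeq gene table (GRCh38.p14). The brightest row stood for each of the 779 genes with several. The minimum mean of 5.45 is close to the median of the named genes, and 7442 of 14884 passed. Just inside it lay BLOC1S4, at 5.4506, and just outside it SNAI3-AS1, at 5.4496.

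The 4 arrays of the MYEOV siRNAs were fitted by the lmFit and eBayes functions of limma 3.58.1 (R 4.3.3), with 2 residual and 3.76 prior degrees of freedom, and p-values were adjusted by Benjamini-Hochberg over all 7442 genes. Precision is limited by 2 arrays per group: an exact permutation of 2 against 2 cannot give a p below 0.333. The fit was tested on simulated data. Figures were drawn with matplotlib 3.10.9.

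The comparison, the 36 gene lists and the rule for named genes were chosen with earlier results of these data known. Lists and classes received no test of their own. The result of 1 list is not reported here. Of the 1973 listed genes 1165 had a row and 1038 were tested. Classes come from RefSeq gene types. The rule named MYEOV, the 12 protein-coding and 5 other called genes with the largest difference per direction, and up to 4 called members per direction of each list or class (or, with 0 called, the member of smallest p). The 12 were taken from called genes whose siRNA groups did not overlap, a condition that all 618 called genes met. It also named up to 4 called genes per side with the control mean outside both siRNA means by more than 0.3, and family members called in opposite directions. Alternatives were all 6 arrays with 3 groups, other filters and row rules, quantile normalization or median centring on top, a trend and robust prior, array weights, the replicate number as a block, and each array left out in turn.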

Additional observations from a re-analysis of the deposited data

How the results depend on the processing

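No called gene changed direction in an alternative that tested it, which says little about stability: the filters, the prior, the fit of all arrays and the block keep the same difference of means, and groups that do not overlap cannot turn with 1 array left out. The number called was 681 with all 6 arrays, 697 with the filter at the 75th percentile, 616 with the rows of a gene averaged, 607 with every row tested, 624 with quantile normalization, 660 with median centring, 890 with the trend and robust prior and 811 with array weights. With no filter on dim genes, and so 14884 genes tested, 60 were called, 37 higher and 23 lower with siRNA 1. With the trend and robust prior, 386 were lower. Leaving out 1 array gave 150 to 216 calls, 98 to 124 higher and 52 to 92 lower, and the lone array of a group is then assumed to vary like the others. Higher calls made up 59.4% in the reported fit and 54.2% to 65.5% in the alternatives. MYEOV was called in none of the alternatives that tested it (limma adjusted p from 0.0872 to 0.880), and the 75th percentile filter left it out. With the replicate number as a block 442 genes were called, 279 higher and 163 lower, of which 409 were also called without it. Of the 154 named called genes 119 stayed called, and CDC25A, RRM2, IRF9, CENPK, HJURP and WAC-AS1 were among those that did not. The deviations of same-numbered arrays correlated across genes at 0.25 between the siRNAs, 0.27 between control and siRNA 1 and 0.20 between control and siRNA 2. With 2 numbers per group, and no label that gives the numbers a meaning, the pairing was not taken as shown. The cause of these shifts was not tested, beyond the change in genes or arrays that a setting itself makes. RMA signals near background limit the dimmest genes, of which fewest were called.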

Other observations

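Rows with no gene symbol were not part of the comparison. Of 8516 such rows with a mean of at least 5.45, 0 were called in a limma fit of their own (smallest Benjamini-Hochberg adjusted p = 0.0709), and 1201 had an unadjusted p under 0.05, or 14.1%, against 24.4% of the named genes. A difference of at least 2-fold between the siRNA means was found in 46 of them, 33 higher with siRNA 1 and 13 lower. By chromosome, the share of tested genes called went from 4.12% on chromosome 19, with 534 genes, to 12.5% on chromosome 4, with 272 genes, among chromosomes with at least 200 tested genes. Rows for PMS2P2 and PMS2P5, and for RPL23AP82 and RPL23AP87, held identical values on every array, so their transcripts cannot be told apart, and none of the 4 was called.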
